A study of Mus musculus with 36 samples.

Results

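The 10 genes described here encode the troponins, tropomyosins and actins of the cardiac thin filament: Tnnt2, Tnnt1, Tnni3, Tnni1, Tnnc1, Tpm1, Tpm2, Actc1, Acta1 and Acta2. They were taken by symbol from the gene tables of the whole series, where all 10 were found among 55291 symbols, and all 10 were among the 19231 genes that passed the filter on low counts. Every gene was read in 36 RNA-Seq libraries, one for each chamber and animal. The CUG960 mice carry TREDT960I (homozygous), a doxycycline-inducible transgene for human DMPK sequence with a long run of CUG repeats, and MHCrtTA (hemizygous), in which the cardiomyocyte promoter of the α-myosin heavy chain gene drives the dox-dependent activator. All 6 cohorts share both alleles. In +dox mice the expanded repeat RNA (CUGexp RNA) was on from postnatal day 1, in +/–dox mice dox was withdrawn at 9 weeks, and –dox mice had no dox. The MBNL1, MBNL2 and MBNL1+MBNL2 mice stayed on dox and were injected at 9 weeks with AAV9 carrying tagged human MBNL1, human MBNL2 or both, under the promoter of human TNNT2. Left ventricle and atria were collected at 21 weeks, with 3 animals per cohort and chamber.

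Since –dox mice lack both the CUGexp RNA and the drug, the effects of the repeat and of dox cannot be told apart in the –dox comparison. The +/–dox mice had both for their first 9 weeks and then had both withdrawn together, so the same limit holds for them. Libraries of mice given an AAV9 vector without MBNL were not analysed here, so vector and MBNL protein cannot be told apart either. The study lists both chambers of the same animals without tying them to the replicate numbers of the libraries. It lists MBNL1+MBNL2 mice as all male and the other cohorts as both sexes, and all MBNL1+MBNL2 libraries carry names of series 56 (the leading digits), to which only replicate 3 of the other cohorts belongs, so that sex, name series and the effect of both proteins cannot be fully told apart. Replicates within a cohort are separate animals. In the main test of counts, the spread of each gene was estimated once over all 36 libraries. A p-value for 1 chamber therefore also rests on the spread between libraries of the other chamber. Depth was 55.0 to 97.1 M expected counts per library. The ventricular library of MBNL1 replicate 1 had 16885 genes above 0, against 20578 to 24041 in the other ventricular libraries. The chambers matched their labels: 6 atrial myocyte markers summed to 40301 to 61795 TPM (a level scaled by transcript length and library size) in atrial libraries and to 96.8 to 1011 TPM in ventricular ones, while 5 ventricular markers summed to 19974 to 28117 TPM in ventricular and 289.2 to 1106 TPM in atrial ones.

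In a resting sarcomere, tropomyosin lies along the actin filament and keeps myosin off it. Calcium binds troponin C, troponin I then lets go of actin, and troponin T carries the movement to tropomyosin, so that myosin heads can attach. The adult heart uses cardiac isoforms of each protein (Tnnt2, Tnni3, Tnnc1, Tpm1 and Actc1). Tnni1 and Acta1 are also known from the fetal heart and from skeletal muscle, Tpm2 from skeletal muscle, Tnnt1 from slow skeletal fibres, and Acta2 from smooth muscle. MBNL proteins, which CUGexp RNA binds and withdraws, are known to repress a fetal exon of Tnnt2.

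That exon cannot be read from the values used here, which are sums over all transcripts of a gene. It is printed to show what the gene level hides. It lies at chr1:135843785-135843814 (GRCm38, plus strand), is 30 bases long and is present in 4 of the 15 Tnnt2 transcripts annotated in GENCODE M21. Its purine-rich sequence codes for the acidic stretch near the amino end of the protein.
Tnnt2 30-base exon: aggaagactggagtgaagaagaggaggacg

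Tnnt2 and Tnnc1 were the members that were higher in both chambers when –dox and +/–dox mice were pooled against +dox mice, and their proximal promoters are shown for that reason. The 250 bases before a RefSeq start (GRCm38.p6), for Tnnt2 the upstream one of 2, are given with every CATTCC (the core of sites for TEAD factors, either strand) and every CANNTG (the E-box) in capitals. They lie at chr1:135836084-135836333 and chr14:31208062-31208311, both on the plus strand.
Tnnt2 promoter: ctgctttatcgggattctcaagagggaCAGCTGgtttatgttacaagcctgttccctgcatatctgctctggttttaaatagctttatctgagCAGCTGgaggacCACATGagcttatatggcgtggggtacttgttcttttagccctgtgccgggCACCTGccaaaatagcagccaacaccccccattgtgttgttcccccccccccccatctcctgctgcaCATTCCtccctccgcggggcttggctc
Tnnc1 promoter: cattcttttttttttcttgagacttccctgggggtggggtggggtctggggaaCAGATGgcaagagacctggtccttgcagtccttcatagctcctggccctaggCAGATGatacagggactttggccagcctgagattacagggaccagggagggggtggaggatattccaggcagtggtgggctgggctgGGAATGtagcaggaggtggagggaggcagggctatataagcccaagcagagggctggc

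Each of the 2 printed promoters holds 1 CATTCC, which lies 27 bases before the start in Tnnt2 and, on the reverse strand, 58 bases before it in Tnnc1. The windows of Acta1, Tpm1 and Acta2 also hold 1 CATTCC each, so the word does not set Tnnt2 and Tnnc1 apart. The window of the second RefSeq start of Tnnt2 (chr1:135836739-135837038) holds 0 CATTCC and 2 CANNTG, so within Tnnt2 CATTCC belongs to the upstream start only. In windows from 250 bases before to 50 bases after the start, CATTCC was found in 14.7% and CANNTG in 72.3% of 32851 RefSeq promoters, so that neither word is rare. Another word was the CArG box bound by serum response factor, searched as CC, 6 bases of A or T, then GG, on both strands. Boxes with a changed base are missed by this search. A window without a match, such as that of Acta2, is therefore not shown to lack such sites. The exact word was found in 1.63% of promoters and, among the members, in Acta1 and Actc1, where it starts 73 and 47 bases before the start. The 50-base stretches lie at chr8:123894819-123894868 and chr2:114052893-114052942, both on the minus strand, with the box in capitals.
Acta1 stretch: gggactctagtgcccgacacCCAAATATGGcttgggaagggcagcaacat
Actc1 stretch: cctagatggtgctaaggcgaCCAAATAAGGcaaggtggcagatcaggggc

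Levels were compared between genes in TPM, which is scaled by transcript length. Together the 10 genes made up 2.34% to 3.13% of the TPM of a ventricular library and 1.945% to 2.59% of an atrial one. In the ventricle, cardiac actin Actc1 stood at the top with a median of 8015 TPM over 18 libraries (6871 to 9163). Cardiac troponin T, Tnnt2, had a median of 5512 TPM (4510 to 7540), and α-tropomyosin, Tpm1, one of 5285 TPM (4264 to 5948). Cardiac troponin I, Tnni3, followed with 4839 TPM (4113 to 5655). Each of these 4 genes overlapped its neighbour in that order, whereas troponin C, Tnnc1, lay below all of them with a median of 3240 TPM (2356 to 3919). A second tier held skeletal actin, Acta1, at 389.5 TPM (166.7 to 882.6), β-tropomyosin, Tpm2, at 51.9 TPM (26.3 to 85.5) and smooth muscle actin, Acta2, at 40.0 TPM (31.3 to 79.3). Of these, only Tpm2 and Acta2 overlapped. Slow skeletal troponin T, Tnnt1, was at 5.88 TPM (3.76 to 8.24), and slow skeletal troponin I, Tnni1, at 0.475 TPM, with 1.18 TPM as its highest library.

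In the atria the same 4 genes led, with medians of 5580 TPM for Actc1 (4043 to 6809), 5578 TPM for Tnni3 (4799 to 6184), 5432 TPM for Tnnt2 (4801 to 7829) and 4240 TPM for Tpm1 (3513 to 4829). Neighbours among these 4 again overlapped, and Tnnc1, at 1349 TPM (894.4 to 1999.9), again did not reach them. Tpm2 stood at 257.3 TPM (170.1 to 311.5), Acta2 at 95.1 TPM (42.2 to 218.0) and Acta1 at 12.9 TPM (3.66 to 35.2). Tnni1, with 11.5 TPM (8.28 to 17.1), and Tnnt1, with 7.28 TPM (4.51 to 8.81), overlapped Acta1 and each other, and 3 genes thus shared the bottom of the order.

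**Figure D1:**
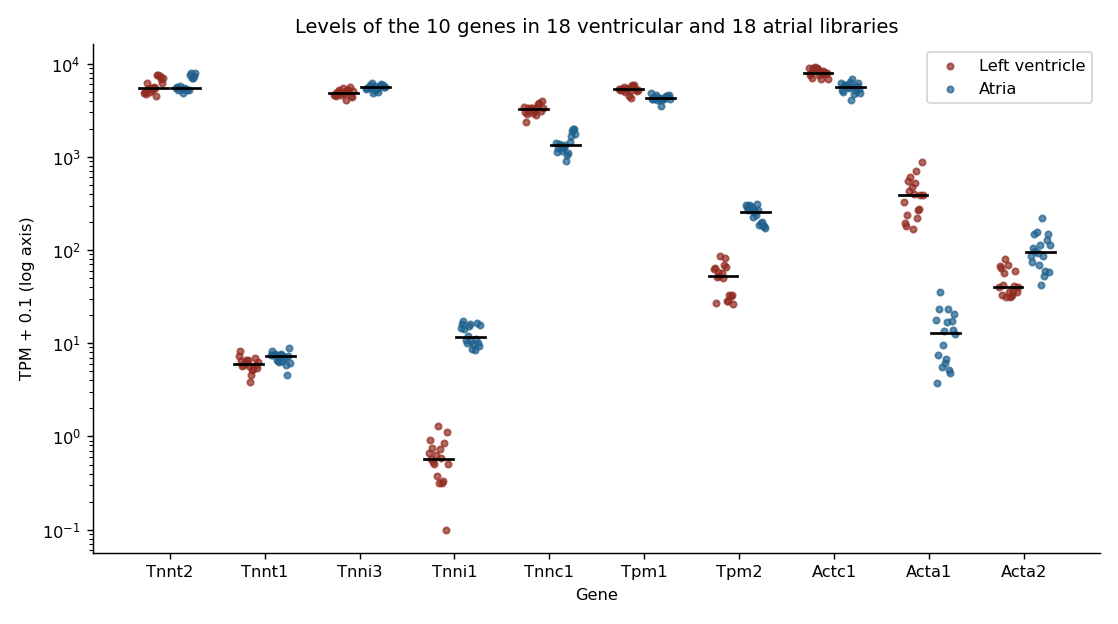
TPM + 0.1 (log axis) of the 10 genes in each of 18 ventricular and 18 atrial libraries of all 6 cohorts, with points for libraries and bars for medians. Acta1 is higher in every ventricular library than in any atrial one (166.7 to 882.6 against 3.66 to 35.2 TPM), Tnni1 is lower in every ventricular library, and Tpm2 does not overlap between chambers.

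Mice without dox or with dox withdrawn were compared with +dox mice to ask which of the 10 genes differ with the CUGexp RNA and dox together. The comparison used edgeR's quasi-likelihood test over all 19231 genes and Benjamini-Hochberg adjustment, with "past the test" meaning an adjusted p below 0.05. Folds refer to CPM, counts scaled to library size with TMM factors. In the ventricle, 2 of 10 members passed the test in –dox mice (20.9% of all genes did), with Tnnt2 higher and Tpm2 lower, and 4 of 10 passed it in +/–dox mice (21.8% of all genes), where Tnni3 and Tnnc1 were higher as well. In the atria, Tnnt2 and Tnnc1 were higher in both cohorts, 2 of 10 members each time, with 15.9% of all genes past the test in –dox and 12.6% in +/–dox mice. Read against these shares, 2 of 10 is near the background and 4 of 10 in the +/–dox ventricle is above it, but that count fell to 2 or 3 in every fit that left out 1 library and to 2 with library totals or within series 53. The list itself was not tested. With the 2 cohorts pooled, 3 of 10 members passed the test in the ventricle (Tnnt2, Tnnc1 and Tpm2; 27.1% of all genes) and 2 of 10 in the atria (Tnnt2 and Tnnc1; 19.5%). Changes of at least 1.5-fold were fewer: Tpm2 in the ventricle of –dox mice (7.6% of all genes), Tnnt2 and Tpm2 in the ventricle of +/–dox mice (6.6%), Tnnc1 in the atria of –dox mice (5.23%) and 0 of 10 in the atria of +/–dox mice (3.99%). The median log2 fold change of the 10 members was -0.04 in the ventricle of –dox mice and 0.06 in that of +/–dox mice, beside 0.01 and 0.00 over all genes tested.

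The MBNL cohorts gave few calls. In the ventricle, 0 of 10 members passed the test against +dox mice with MBNL1 (8.95% of all genes; 1 member at an unadjusted p below 0.05) and 0 of 10 with MBNL2 (7.43% of all genes; 0 members unadjusted), and DESeq2 called 0 in each. With MBNL1+MBNL2, 1 member, Tnnt1, passed it and fell (8.34% of all genes, and 2.65% at 1.5-fold or more), against 2 in DESeq2. In the atria, 0 of 10 members passed in each of the 3 cohorts by either tool, with 0, 0 and 1 members at an unadjusted p below 0.05 and 0.348%, 0.0104% and 0.686% of all genes past the test in MBNL1, MBNL2 and MBNL1+MBNL2 mice. All these comparisons share the +dox libraries and are therefore given side by side, cohort by cohort, for each protein.

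**Figure D2:**
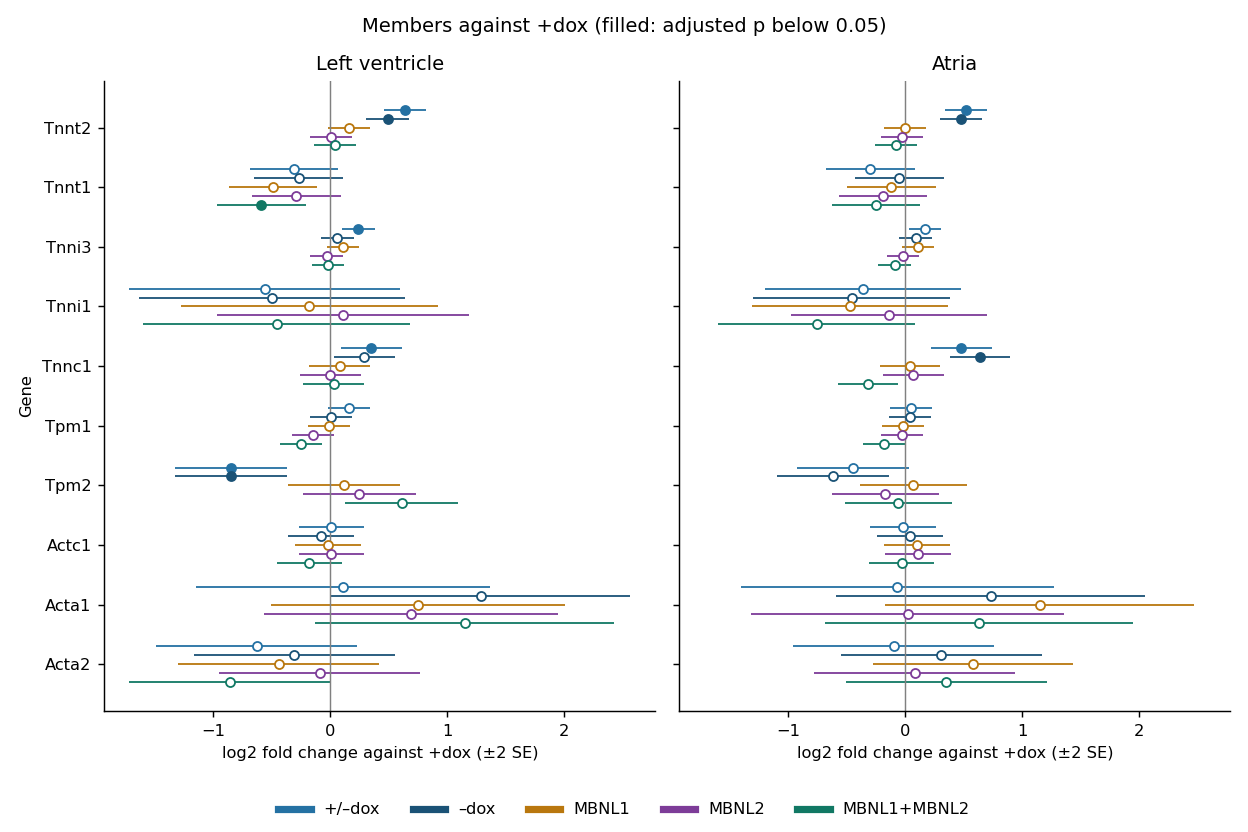
Log2 fold change of each gene against +dox in the left ventricle and the atria, with bars of 2 SE on either side, for 5 cohorts of 3 animals each. Filled points have an adjusted p below 0.05, and they lie at Tnnt2 in both dox-off cohorts and both chambers, at Tnnc1 in 3 of those 4 comparisons, at ventricular Tpm2, and once each at ventricular Tnni3 (+/–dox) and Tnnt1 (MBNL1+MBNL2).

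Tnnt2 (ENSMUSG00000026414.13, chr1:135836354-135852260, plus strand), the tropomyosin-binding troponin subunit, rose in both chambers in –dox and +/–dox mice. In the ventricle, +dox libraries read 3822, 4074 and 3460 CPM, –dox libraries 5554, 5103 and 5274 CPM, and +/–dox libraries 6045, 6050 and 5547 CPM. Every dox-off library lay above every +dox library, and the –dox and +/–dox ranges overlapped each other. The log2 fold change was 0.49 in –dox mice (1.40-fold, SE 0.09, adjusted p = 0.000257) and 0.64 in +/–dox mice (1.55-fold, SE 0.09, adjusted p = 9.63e-06). In the atria, +dox libraries read 3108, 3031 and 2628 CPM, –dox libraries 3979, 4142 and 4067 CPM, and +/–dox libraries 4175, 4653 and 3736 CPM. Again no dox-off library reached down to the +dox range. Atrial Tnnt2 was 1.39-fold higher in –dox mice (log2 0.48, adjusted p = 0.000479) and 1.43-fold higher in +/–dox mice (log2 0.52, adjusted p = 0.000228). The response did not differ detectably between chambers: the ventricular minus the atrial change was 0.01 on the log2 scale in –dox mice (2 SE, -0.25 to 0.27, adjusted p = 0.993) and 0.12 in +/–dox mice (-0.14 to 0.38, adjusted p = 0.789). Over all 5 interaction comparisons, 0 of 10 members passed the test and 0 had an unadjusted p below 0.05, where 1.03% of all genes passed in –dox, 0.692% in +/–dox, 0.0312% in MBNL1, 0.0364% in MBNL2 and 0.0728% in MBNL1+MBNL2 mice. These fits treat the libraries as independent, although both chambers come from the same animals. With the replicate number as a block across chambers, a fit added after the data were seen, 0 of 10 members passed as well, and Tnnt2 was at 0.01 (adjusted p = 0.981) and 0.12 (adjusted p = 0.562).

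The libraries are of bulk tissue, in which a change in the number of cells of a type and a change in RNA per cell cannot be told apart. Beside Tnnt2, the summed level of 8 cardiomyocyte markers, none of them at 0, ranged over 22106 to 23631 TPM in ventricular +dox libraries, 24054 to 26759 TPM in –dox and 27665 to 28328 TPM in +/–dox libraries, with 3 and 5 of the 8 genes higher past the test. In the atria it was 17935 to 19855 TPM in +dox, 20425 to 22098 TPM in –dox and 22732 to 23724 TPM in +/–dox libraries, with 4 of 8 genes higher each time. The 6 atrial myocyte markers summed there to 40301 to 43366 TPM in +dox, 54391 to 57789 TPM in –dox and 55844 to 60746.5 TPM in +/–dox libraries. The 5 ventricular myocyte markers did not rise in the ventricle. Their sum was 24716 to 28117 TPM in +dox, 19974 to 25076 TPM in –dox and 22952 to 26762.5 TPM in +/–dox libraries, and both dox-off ranges overlapped +dox. Markers of vessel cells moved as well: 4 of 4 endothelial and 5 of 5 pericyte markers were higher in the ventricle of each dox-off cohort, and the endothelial sum went from 134.2 to 143.9 TPM in +dox to 168.3 to 216.4 TPM in –dox and 176.5 to 193.8 TPM in +/–dox libraries. Of 6 fibroblast markers, 1 and 2 were higher in the –dox and +/–dox ventricle, and of 4 macrophage markers 0 were. These counts stand beside 20.9% and 21.8% of all genes past the test in the ventricle and 15.9% and 12.6% in the atria. The part of these markers in the results for the 10 genes was not tested.

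In MBNL mice, ventricular Tnnt2 read 4908, 4212 and 3532 CPM with MBNL1, 3784, 3804 and 3885 CPM with MBNL2, and 4277, 3894 and 3532 CPM with MBNL1+MBNL2. All 3 cohorts overlapped the +dox range, and the MBNL1 libraries spread the most. In TPM, however, MBNL1 (4999 to 6136) and MBNL2 libraries (5257 to 5533) lay above all +dox libraries (4662 to 4937), and limma on log2(TPM + 1) gave 0.19 (adjusted p = 0.129) and 0.17 (adjusted p = 0.157). The log2 fold changes against +dox were 0.16 (2 SE, -0.03 to 0.34, adjusted p = 0.302), 0.01 (-0.17 to 0.20, adjusted p = 0.954) and 0.04 (-0.14 to 0.23, adjusted p = 0.835). The upper ends of these intervals lie below the 0.49 and 0.64 seen in –dox and +/–dox ventricles. Atrial Tnnt2 had log2 values of 0.00 (2 SE, -0.18 to 0.19), -0.03 (-0.21 to 0.16) and -0.08 (-0.27 to 0.10) and adjusted p values of 1, 1 and 0.859. Measured against +/–dox mice in place of +dox mice, ventricular Tnnt2 was lower by 0.48 with MBNL1 (log2 -0.48, adjusted p = 0.00373), by 0.62 with MBNL2 (log2 -0.62, adjusted p = 8.38e-05) and by 0.59 with both (log2 -0.59, adjusted p = 0.000395). The same comparison in the atria gave log2 -0.52 (adjusted p = 0.000775), -0.55 (adjusted p = 0.000173) and -0.60 (adjusted p = 9.86e-05). Tnnt2 in each MBNL cohort thus lay below the level of mice whose dox was withdrawn, in both chambers.

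Tnnt2 was 1 of several members past the test against +/–dox mice. In the ventricle there were 2 of 10 with MBNL1 (Tnnt2 and Tpm2; 2.67% of all genes), 4 of 10 with MBNL2 (Tnnt2, Tnni3, Tpm1 and Tpm2; 5.39%) and 3 of 10 with MBNL1+MBNL2 (Tnnt2, Tpm1 and Tpm2; 1.77%). In the atria there were 2 of 10 with MBNL1 (4.6% of all genes), 2 of 10 with MBNL2 (11%) and 3 of 10 with MBNL1+MBNL2 (6.86%), of which Tnnt2 and Tnnc1 were lower in each and Tnni3 was the third. Between –dox and +/–dox mice, edgeR's test called 0 of 10 members in either chamber (0.0572% of ventricular and 0.0208% of atrial genes), with 1 and 0 members at an unadjusted p below 0.05.

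The slow skeletal isoform Tnnt1 (chr7:4504570-4516382, minus strand) had negative log2 values against +dox in all 5 ventricular cohorts, 1 of which passed the test. Its ventricular CPM were 4.68, 5.55 and 4.13 in +dox and 3.85, 2.50 and 3.22 in MBNL1+MBNL2 libraries, which did not overlap. Tnnt1 fell by 0.59 on the log2 scale in MBNL1+MBNL2 mice (0.67-fold, SE 0.19, adjusted p = 0.0496), a call at the edge of the threshold that was lost in 4 of 6 fits without 1 of these libraries (adjusted p 0.0748 to 0.246). The call was also lost with the library name series as a covariate, RLE size factors, no low count filter or the replicate block. The other ventricular cohorts had log2 values of -0.27 in –dox, -0.31 in +/–dox, -0.49 in MBNL1 and -0.29 in MBNL2 mice, none past the test. As a share of the TPM of Tnnt1 and Tnnt2 together, ventricular Tnnt1 was 0.149%, 0.167% and 0.136% in +dox libraries. It was 0.0854%, 0.0850% and 0.0890% in –dox and 0.0672%, 0.0696% and 0.0921% in +/–dox libraries, and its means were 0.106%, 0.117% and 0.0892% with MBNL1, MBNL2 and MBNL1+MBNL2. No library of the 5 cohorts overlapped +dox, but 3 animals against 3 cannot go below p = 0.1 in the two-sided exact permutation test used, and the adjusted p over 70 share tests was 0.28. Atrial Tnnt1 itself read 3.90, 3.54 and 3.40 CPM in +dox and 3.73, 4.27 and 2.50 CPM in –dox libraries, which overlapped (log2 -0.05, adjusted p = 0.9), and its +/–dox value was -0.30 (adjusted p = 0.337). In both chambers the Tnnt1 share also moves with Tnnt2, which rose in the dox-off cohorts. The atrial +dox shares of 0.137%, 0.148% and 0.143% lay above those of –dox (0.103%, 0.120% and 0.0775%) and +/–dox libraries (0.0910%, 0.0734% and 0.0649%). The 6 pooled dox-off libraries of each chamber against 3 reached the smallest value that the exact permutation test allows, p = 0.0238, with an adjusted p of 0.28.

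Cardiac troponin I, Tnni3 (chr7:4518305-4524229, minus strand), the inhibitory subunit, showed small differences. Ventricular libraries read 2773, 2982 and 2660 CPM in +dox, 2911, 2828 and 3024 CPM in –dox, and 3306, 3304 and 3359 CPM in +/–dox mice. The +/–dox libraries lay above all others of these 3 cohorts, and Tnni3 rose there by 1.18-fold (log2 0.24, SE 0.07, adjusted p = 0.0161), while –dox mice had a log2 value of 0.06 (adjusted p = 0.633). The +/–dox call of Tnni3 was lost when library totals alone set the scale (log2 0.17, adjusted p = 0.0661), within series 53 (0.21, adjusted p = 0.0518), without +dox replicate 1 (0.24, adjusted p = 0.0562) or 3 (0.21, adjusted p = 0.0847), and without +/–dox replicate 3 (0.23, adjusted p = 0.0508). Against +/–dox mice, ventricular Tnni3 was lower with MBNL2 (log2 -0.27, adjusted p = 0.0266) and atrial Tnni3 with MBNL1+MBNL2 (log2 -0.26, adjusted p = 0.0286). In the atria Tnni3 read 2378, 2306 and 2213 CPM in +dox and 2499, 2824 and 2423 CPM in +/–dox libraries, which did not overlap (log2 0.17, adjusted p = 0.145). The gene overlaps Dnaaf3 on the same strand, so the values of Tnni3 hold what the authors' counting assigned to it.

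The slow skeletal isoform Tnni1 (chr1:135779434-135810989, plus strand), which the fetal heart also uses, was near 0 in the ventricle. Ventricular libraries were between 0 and 0.837 CPM, and the gene made up at most 0.0231% of the TPM of Tnni1 and Tnni3 there, against 0.145% to 0.310% in the atria. Atrial Tnni1 read 8.20, 8.48 and 8.78 CPM in +dox, 5.44, 4.95 and 8.11 CPM in –dox, and 5.55, 4.53 and 4.92 CPM in MBNL1+MBNL2 mice. The +dox libraries were above both other cohorts, whereas +/–dox libraries, at 4.65, 6.12 and 8.99 CPM, overlapped them, and the differences of –dox and MBNL1+MBNL2 mice did not pass the test (log2 -0.46, adjusted p = 0.514, and log2 -0.76, adjusted p = 0.588).

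Tnnc1 (ENSMUSG00000091898.8, chr14:31208312-31211729, plus strand), the calcium sensor of the complex, rose with Tnnt2 in the atria. Its atrial CPM were 450.7, 339.6 and 360.4 in +dox libraries, 641.5, 632.9 and 517.8 in –dox libraries and 459.1, 561.4 and 589.4 in +/–dox libraries. Neither dox-off cohort overlapped +dox, although the lowest +/–dox library lay just above the highest +dox one. Atrial Tnnc1 was 1.56-fold higher in –dox mice (log2 0.64, SE 0.13, adjusted p = 0.000613) and 1.40-fold higher in +/–dox mice (log2 0.48, adjusted p = 0.00966). The atrial +/–dox call was lost without +dox replicate 2 and without +/–dox replicate 2 or 3. Ventricular Tnnc1 read 1479, 1369 and 1011 CPM in +dox, 1452, 1812 and 1452 CPM in –dox, and 1573, 1707 and 1637 CPM in +/–dox mice. One +dox library, replicate 3, was the lowest of the 9, and –dox overlapped +dox. The ventricular change was 0.29 on the log2 scale in –dox mice (adjusted p = 0.104) and passed the test in +/–dox mice at 0.35 (1.27-fold, SE 0.13, adjusted p = 0.0451). Without +dox replicate 3 the ventricular +/–dox value of Tnnc1 was 0.20 (adjusted p = 0.302), and the call was lost in 5 of 6 fits that left out 1 library. The difference in response between chambers was -0.35 for –dox (2 SE, -0.71 to 0.01, adjusted p = 0.476).

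In MBNL mice, atrial Tnnc1 was at 420.1, 425.0 and 334.8 CPM with MBNL1, 395.6, 400.9 and 408.8 CPM with MBNL2 and 271.4, 319.4 and 328.8 CPM with MBNL1+MBNL2. The last 3 libraries lay below every atrial +dox library, with a log2 fold change of -0.32 that did not pass the test (adjusted p = 0.342). Against +/–dox mice, atrial Tnnc1 was lower in all 3 cohorts: by 0.45 with MBNL1 (log2 -0.45, adjusted p = 0.035), by 0.42 with MBNL2 (log2 -0.42, adjusted p = 0.0292) and by 0.81 with both (log2 -0.81, 0.57-fold, adjusted p = 0.000138). The gene lies opposite Nisch on the other strand, and the strand setting of the authors' counting is not given in the sources used here.

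**Figure D3:**
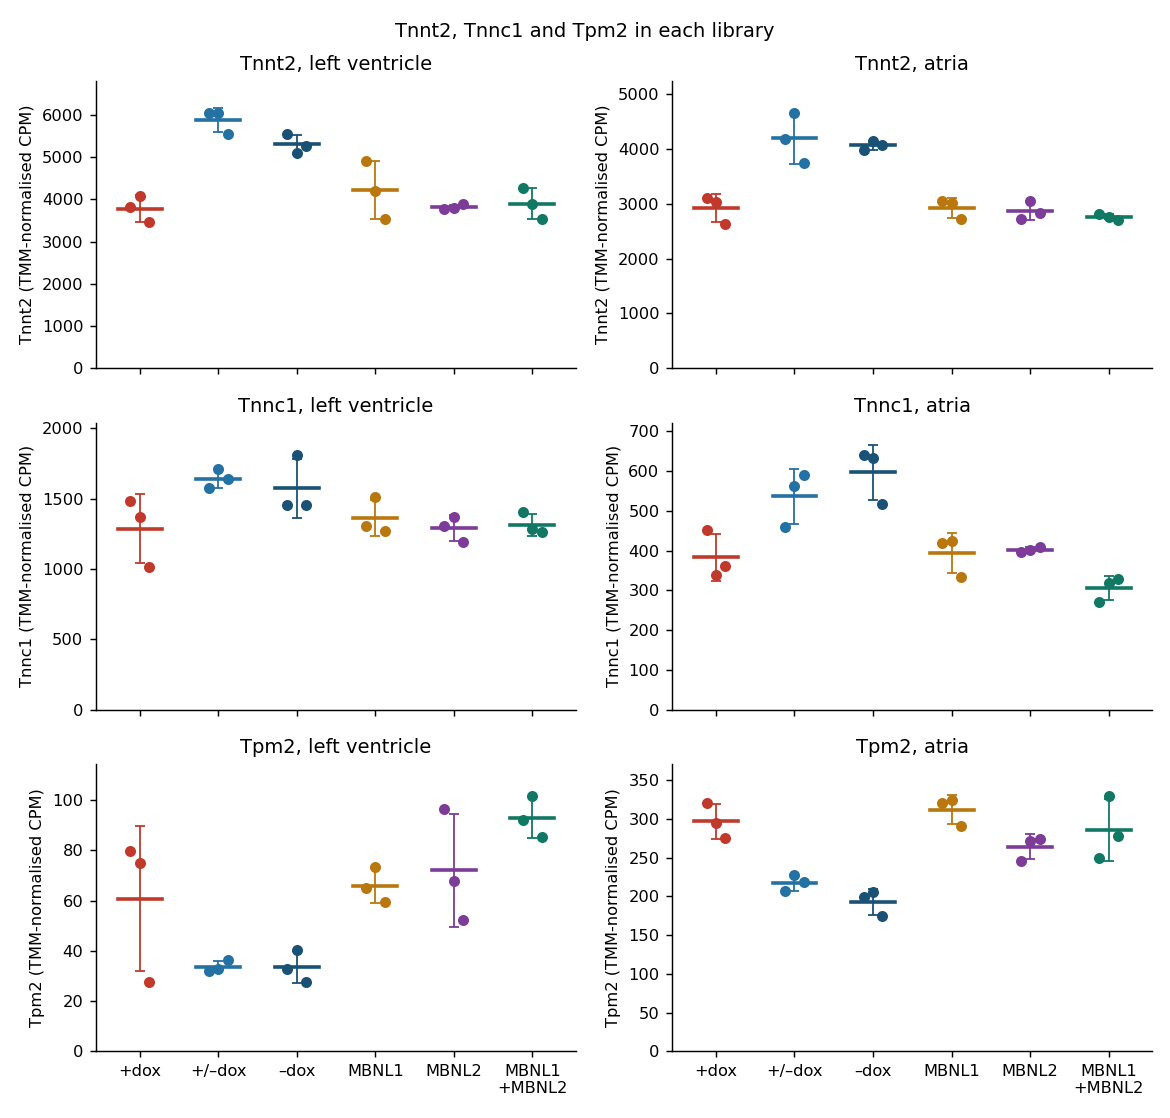
TMM-normalised CPM of Tnnt2, Tnnc1 and Tpm2 in each library by cohort, left ventricle on the left and atria on the right, with points for libraries and bars for the mean and SD of 3 animals. Tnnt2 in –dox and +/–dox libraries lies above every +dox library in both chambers (3736 CPM or more against 3108 CPM or less in the atria), and ventricular Tpm2 in +dox replicate 3 (27.5 CPM) stands apart from replicates 1 and 2.

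Of the tropomyosins, Tpm1 (chr9:67022590-67049406, minus strand), the main cardiac form, showed small differences. Ventricular libraries read 4708, 4751 and 4527 CPM in +dox, 4908, 4714 and 4476 CPM in –dox, and 5279, 5305 and 5037 CPM in +/–dox mice. The +/–dox libraries were the highest, at 1.12-fold of +dox (log2 0.16, adjusted p = 0.22), and –dox was level with +dox (log2 0.01, adjusted p = 0.949). MBNL1+MBNL2 libraries, at 3888, 4078 and 3781 CPM, lay below all of these. Their difference from +dox did not pass the test (log2 -0.25, 0.84-fold, adjusted p = 0.0792), and that from +/–dox mice did (log2 -0.41, adjusted p = 0.0123), as did that of MBNL2 from +/–dox mice (log2 -0.31, adjusted p = 0.0376). Atrial Tpm1 lay between 2100.5 and 3087 CPM in all 18 libraries, with log2 values of -0.18 to 0.05 against +dox and none past the test.

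Tpm2 (ENSMUSG00000028464.16, chr4:43514711-43523765, minus strand), β-tropomyosin, went the opposite way to Tnnt2. Its ventricular CPM were 79.6, 75.1 and 27.5 in +dox, 32.9, 40.3 and 27.5 in –dox, and 32.0, 32.9 and 36.2 in +/–dox libraries. Replicates 1 and 2 of +dox, at 75.1 CPM or more, lay well above the highest dox-off library at 40.3 CPM, and replicate 3 was the lowest of the 9. Ventricular Tpm2 fell by 0.85 on the log2 scale in –dox mice (0.55-fold, SE 0.24, adjusted p = 0.0116) and in +/–dox mice (0.55-fold, adjusted p = 0.0115). These calls turn on the choice of libraries: without +dox replicate 3 the values were -1.20 and -1.20 (adjusted p = 5.14e-06 and 7.26e-06), without +dox replicate 1 they were -0.61 and -0.61 (adjusted p = 0.108 and 0.103), and a fit of the 18 ventricular libraries alone gave -0.85 and -0.84 (adjusted p = 0.0847 and 0.0835).

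Atrial Tpm2 gave a tighter picture, with 321.0, 295.1 and 276.0 CPM in +dox, 198.8, 205.9 and 174.5 CPM in –dox, and 206.9, 227.1 and 218.7 CPM in +/–dox libraries. The 6 dox-off libraries lay below all 3 +dox libraries, at 227.1 CPM or less against 276.0 CPM or more. The log2 fold changes were -0.62 in –dox (adjusted p = 0.0735) and -0.45 in +/–dox mice (adjusted p = 0.237), and both missed the threshold. The fit of the 18 atrial libraries alone gave -0.64 (adjusted p = 8.76e-05) and -0.47 (adjusted p = 0.00189). With the replicate block in the fit of both chambers, the –dox change passed the test as well. Why the calls differ between fits was not tested. As a share of Tpm1 and Tpm2, atrial Tpm2 was 5.96%, 6.50% and 6.13% in +dox, 3.84%, 3.81% and 3.94% in –dox, and 4.23%, 4.16% and 4.33% in +/–dox libraries, and those of the pooled dox-off cohorts averaged 4.05% against 6.20% (exact permutation test, two-sided, p = 0.0238, the smallest it allows, adjusted p = 0.28).

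With MBNL1+MBNL2, ventricular Tpm2 read 91.9, 101.6 and 85.4 CPM, above every +dox library. The difference was 1.53-fold (log2 0.61, adjusted p = 0.115) in the test used throughout and passed in DESeq2 (log2 0.64, adjusted p = 0.0368) and with the library name series as a covariate (log2 0.84, adjusted p = 0.0189). Within series 56 the difference of Tpm2 was 1.75, over the single +dox library of that series, replicate 3 with the low level. MBNL1 libraries (64.9, 73.5 and 59.5 CPM) and MBNL2 libraries (96.4, 67.7 and 52.1 CPM) lay within or around the +dox range, with log2 values of 0.12 and 0.25. Against +/–dox mice, ventricular Tpm2 was higher in all 3 cohorts, with log2 values of 0.97 with MBNL1 (adjusted p = 0.0288), 1.10 with MBNL2 (adjusted p = 0.00685) and 1.46 with both (2.76-fold, adjusted p = 0.00153). Atrial Tpm2 in the same cohorts, from 245.6 to 329.5 CPM, stayed above every dox-off library.

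The deposited values also held a trace of which Tpm2 transcripts were read. The expected count of a gene divided by its TPM follows the mean length of the transcripts that the authors' tool assigned reads to, and this effective length was compared between libraries after centring on genes of like length (limma, 10539 genes, 9 of the 10 members, Tnni1 left out for low counts). Of the 6 annotated Tpm2 transcripts, 3 were compared exon by exon, and their last exon is 151 bases in a transcript of 1164 bases and 1293 and 1292 bases in transcripts of 2175 and 2098 bases. Relative to the mean of the atrial libraries, the effective length of Tpm2 was 93.3% to 103.9% in single atrial libraries. In the ventricle it was 81.4%, 72.6% and 70.7% in +dox, 63.8%, 74.3% and 70.2% in –dox, and 71.2%, 71.6% and 73.9% in +/–dox libraries, so that every ventricular library lay below every atrial one. The ventricle to atria ratio of Tpm2 effective length was 0.77 in +dox (adjusted p = 1.75e-05), 0.71 in +/–dox (adjusted p = 1.97e-07) and 0.69 in –dox mice (adjusted p = 1.02e-07), comparisons in which 1.74%, 3.82% and 1.41% of genes passed the test. In MBNL1 mice it was 0.81 (adjusted p = 0.000299; 2.25% of genes), in MBNL2 mice 0.82 (adjusted p = 0.000559; 1.27%) and in MBNL1+MBNL2 mice 0.85 (adjusted p = 0.00645; 1.66%).

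Ventricular Tpm2 of MBNL1+MBNL2 mice had the longest effective length of the 6 ventricular cohorts, with 87.6%, 89.1% and 84% of the atrial mean, above all 3 +dox libraries. The ratio to +dox was 1.16 (log2 0.22, SE 0.05, limma, adjusted p = 0.0235; 0.778% of genes passed), and the log2 difference from +/–dox mice was 0.27 (adjusted p = 0.0088; 0.323% of genes). The +dox comparison lost its call without +dox replicate 3 (adjusted p = 0.0606), without MBNL1+MBNL2 replicate 1 (0.106) or 2 (0.138) and with the library name series as a covariate (0.0542). MBNL1 libraries (81.0%, 81.8% and 80.6%) and MBNL2 libraries (81.7%, 84.6% and 75.9%) both overlapped the upper end of the +dox range. The effective length of Tnnt2, whose 30-base exon is printed above, differed between –dox and +dox ventricles by -0.02 on the log2 scale (adjusted p = 0.167).

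**Figure D4:**
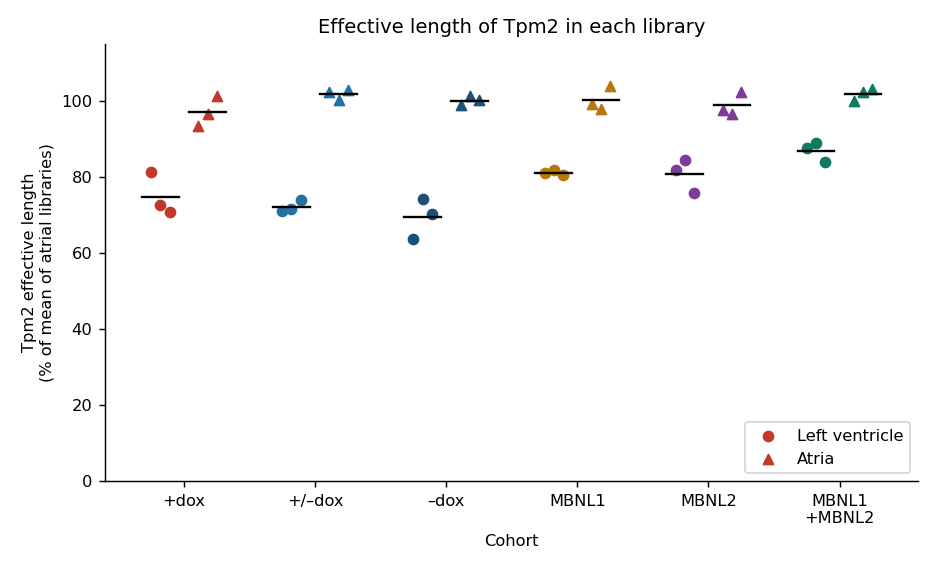
Effective length of Tpm2, as a percentage of the mean of the atrial libraries, in each library by cohort, with circles for ventricle, triangles for atria and bars for means of 3 animals. All ventricular libraries lie below all atrial ones, and MBNL1+MBNL2 is the highest ventricular cohort (84% to 89.1%).

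The striated actins, which form the filament itself, did not pass the test in any dox or MBNL comparison of either chamber. Cardiac Actc1 (chr2:114047282-114053548, minus strand) held between 7432 and 10138 CPM in the 18 ventricular libraries, and its log2 values there ran from -0.18 to 0.01 against +dox. Skeletal Acta1 (chr8:123891769-123894751, minus strand) varied far more between animals. It read 361.9, 220.8 and 188.9 CPM in ventricular +dox libraries, 446.6, 1021 and 414.0 CPM in –dox libraries and 245.3, 304.2 and 285.6 CPM in +/–dox libraries. The –dox libraries were above all of +dox, and +/–dox libraries lay inside the +dox range. Acta1 was 2.44-fold higher in –dox mice with an SE of 0.64 on the log2 value of 1.29 (adjusted p = 0.166), and 1.08-fold in +/–dox mice (log2 0.11). In MBNL1+MBNL2 mice, with 423.8, 523.0 and 770.1 CPM, it was 2.22-fold of +dox (log2 1.15, adjusted p = 0.299). Atrial Acta1 was lower and as uneven, with 13.9, 2.76 and 5.21 CPM in +dox, 11.1, 16.3 and 9.06 CPM in –dox and 17.3, 27.7 and 3.89 CPM in MBNL1 libraries. These cohorts overlapped, so that no atrial difference of Acta1 exceeded the spread between animals.

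Acta1 made up 3.53%, 2.52% and 2.24% of the TPM of Acta1 and Actc1 in ventricular +dox libraries, against 4.81%, 10.1% and 5.39% in –dox and 5.01%, 6.15% and 9.29% in MBNL1+MBNL2 libraries, which did not overlap +dox. In the atria the cohort means of this share were 0.166% to 0.360%. Smooth muscle Acta2 (chr19:34241090-34255590, minus strand) read 65.3, 114.5 and 98.4 CPM in ventricular +dox and 55.8, 45.7 and 51.9 CPM in MBNL1+MBNL2 libraries. The 2 cohorts did not overlap, and the log2 difference of -0.86 did not pass the test (adjusted p = 0.248). Atrial Acta2 ranged most within a single cohort, at 46.0, 235.4 and 92.5 CPM in MBNL1+MBNL2 libraries against 102.0, 82.6 and 109.7 CPM in +dox libraries. Beside Acta2, the summed level of 9 smooth muscle markers was 551.9 to 600.2 TPM in ventricular +dox and 717.0 to 918.0 TPM in MBNL1+MBNL2 libraries. Most of that sum is Des (445.1 to 819.1 TPM over ventricular libraries), which cardiomyocytes also express, while Myh11, which defines smooth muscle, was at 7.52 to 16.2 TPM and Actg2 reached 0 in its lowest ventricular library. Their part in the Acta2 values was not tested. Actc1 and Acta1 are each overlapped by a gene on the opposite strand (A530058N18Rik and Gm20388), with the same limit on strand as for Tnnc1. The proteins of the 3 actins are nearly identical. The expected counts of all 3 genes, read to 1 decimal, were whole numbers in all 36 libraries. Whether reads were divided between these genes was not tested.

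**Figure D5:**
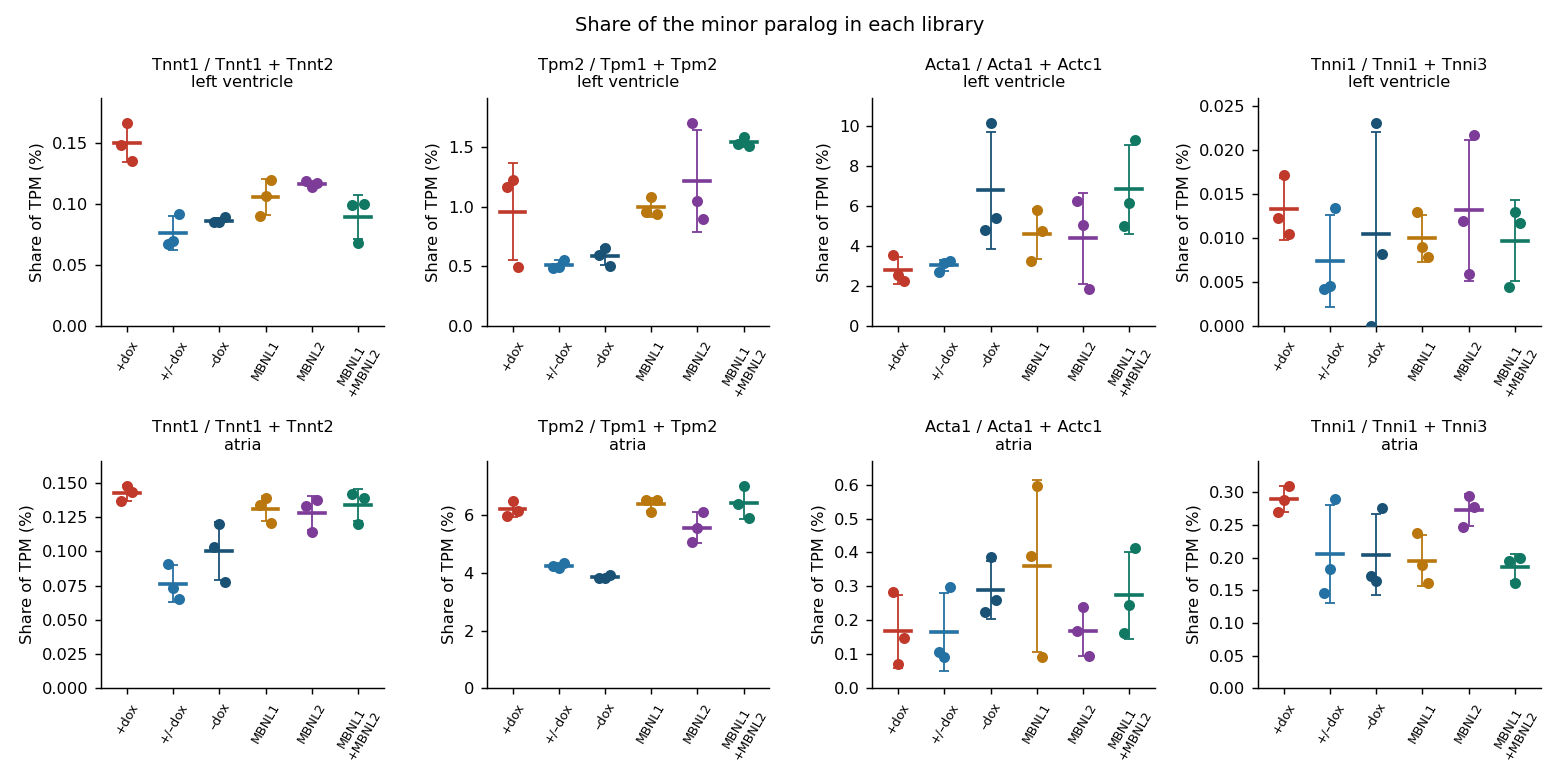
Share (% of TPM) of the minor gene in 4 pairs (Tnnt1 with Tnnt2, Tpm2 with Tpm1, Acta1 with Actc1, Tnni1 with Tnni3) for each library by cohort, ventricle on top and atria below, with points for libraries and bars for mean and SD of 3 animals. The Tnnt1 share is highest in +dox in both chambers (means of 0.150% in the ventricle), and the atrial Tpm2 share is lower in –dox and +/–dox than in +dox libraries (means of 3.86% and 4.24% against 6.20%).

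The comparison of ventricle with atria within each cohort gave the largest differences. Of the 10 members, 8 passed the test in +dox (43.6% of all genes), +/–dox (41.9%), –dox (42.6%) and MBNL2 mice (39.2%), and 9 passed it in MBNL1 (43.3%) and MBNL1+MBNL2 mice (41.7%). Acta1 was 51.6-fold higher in the ventricle of –dox mice (log2 5.69, adjusted p = 1.23e-06) and Tnnc1 2.63-fold higher (log2 1.40, adjusted p = 1.84e-10). Actc1 was 2.00-fold higher (log2 1.00, adjusted p = 4.25e-07) and Tpm1 1.71-fold higher (log2 0.78, adjusted p = 1.55e-08). In TPM these 2 differences kept their direction but were smaller. The –dox means were 7459 TPM in the ventricle against 5445 TPM in the atria for Actc1, and 5186 against 4403 TPM for Tpm1. The atrial side held Tnni1, at a ventricular level of 0.05-fold (log2 -4.33, adjusted p = 1.3e-07), and Tpm2, at 0.17-fold (log2 -2.52, adjusted p = 4.51e-09). Tnnt2 was 1.31-fold (adjusted p = 0.000917) and Tnni3 1.19-fold (adjusted p = 0.00564) higher in the ventricle of –dox mice with TMM scaling, but log2(TPM + 1) put both lower there (log2 -0.15 and -0.29). The same scale put Tnnt1 lower too (log2 -0.30), where its TMM value was 0.18 and not past the test. The scaling itself moved the median of all genes between chambers from -0.03 with TMM to -0.35 with library totals alone, so that differences of this size have no fixed sign.

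Over the 6 cohorts, the ventricle to atria log2 difference ranged over 4.73 to 5.80 for Acta1, 1.40 to 2.10 for Tnnc1, 0.97 to 1.14 for Actc1, 0.69 to 0.92 for Tpm1 and -4.48 to -3.99 for Tnni1. Tpm2 ranged from -2.69 in +/–dox to -1.62 in MBNL1+MBNL2 mice. The interaction test of Tpm2 for MBNL1+MBNL2 against +dox gave 0.67 (2 SE, 0.00 to 1.34, adjusted p = 0.785). The ninth member in MBNL1 and MBNL1+MBNL2 mice was Acta2, lower in the ventricle (log2 -1.09, adjusted p = 0.0446, and log2 -1.28, adjusted p = 0.0201). The second of these was lost with the replicate number as a block across chambers (log2 -0.97, adjusted p = 0.0829).

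Other genes of the thin filament were read from a list of 22 genes for filament length, capping and turnover. In the ventricle, 6 were higher and 2 lower past the test in –dox mice and 5 were higher and 3 lower in +/–dox mice, beside 20.9% and 21.8% of all genes. In the atria the counts were 5 and 3 in –dox and 3 and 1 in +/–dox mice, beside 15.9% and 12.6%. Tmod4, a cap of the pointed end of actin filaments, rose in all 4 comparisons, by log2 0.74 (adjusted p = 0.024) and 0.87 (adjusted p = 0.00792) in the ventricle and 0.93 (adjusted p = 0.00771) and 1.04 (adjusted p = 0.00372) in the atria. Its atrial TPM went from 6.73, 8.32 and 8.92 in +dox to 15.7, 15.7 and 12.6 in –dox libraries. Nrap, an anchor of actin at the intercalated disc, rose in the ventricle by log2 0.67 in –dox (adjusted p = 0.00418) and 0.60 in +/–dox mice (adjusted p = 0.00925). Nebl, the cardiac relative of nebulin, fell by 0.67 on the log2 scale in the –dox ventricle (adjusted p = 3.1e-06), from 149.5, 140.6 and 171.2 TPM in +dox to 84.4, 85.3 and 75.2 TPM.

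Of 7 motor and thick filament genes, 1 was higher past the test in the +/–dox ventricle: Myh6, the α-myosin heavy chain whose promoter drives MHCrtTA (log2 0.28, adjusted p = 0.0272), named here after its value was seen. Of 13 genes of serum response factor and its coactivators, 2 were higher and 2 lower in the –dox ventricle and 4 were higher in +/–dox, among them none at 1.5-fold. Abra, an actin-binding activator of this pathway, was 1 of the 2 in –dox mice (log2 0.68, adjusted p = 0.0131). In the atria 2 were lower in –dox mice, with Fhl2 falling by 0.97 on the log2 scale (adjusted p = 0.000282). Beside these lists stand the same shares over all genes, 20.9% and 21.8% in the ventricle and 15.9% in the –dox atria, and no list was tested as a whole.

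The last group was a list of 8 further troponin, tropomyosin and actin genes, of which only the troponins are isoforms of fast skeletal muscle. In the atria 2 of 8 rose in each dox-off cohort, beside 15.9% and 12.6% of all genes, and both are fast skeletal troponins. Tnnt3, fast troponin T, was at 0.22, 0.21 and 0.19 TPM in +dox, 1.74, 2.51 and 1.86 TPM in –dox, and 1.20, 2.21 and 3.07 TPM in +/–dox libraries. These ranges are far apart, with 4 to 11 expected counts in +dox and 37 to 109 in the dox-off libraries. Tnnt3 was 10.5-fold higher in –dox mice (log2 3.39, adjusted p = 0.000137) and log2 3.49 higher in +/–dox mice (adjusted p = 0.000126). Tnni2, fast troponin I, was 4.06-fold higher in –dox mice (log2 2.02, adjusted p = 0.0141) and log2 1.96 higher in +/–dox mice (adjusted p = 0.0208). Its TPM were 0.71, 0.50 and 0.64 in +dox, 2.25, 2.39 and 2.75 in –dox and 1.20, 2.83 and 2.86 in +/–dox libraries, which did not overlap +dox. The other fast skeletal subunit, troponin C (Tnnc2), did not follow them: it had 2, 1 and 7 expected counts in atrial +dox, 0, 0 and 0 in –dox and 0, 0 and 1 in +/–dox libraries, too few to give a fold. The fast skeletal myosins Myh1, Myh2 and Myh4, which define such fibres, were at most 0.07 TPM in any library. Of the other genes on the skeletal muscle marker list, Actn3 reached 0.94 TPM in the atria, and Myl1 stood at 576.4 to 1021.4 TPM in the atria and 45.8 to 149.8 TPM in the ventricle. The part of these genes in the Tnnt3 and Tnni2 results was not tested. In the ventricle, 1 of 8 was higher in –dox and 0 in +/–dox mice, at or below the 20.9% and 21.8% of all genes past the test there.

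The gene whose level followed Tnnt2 most closely over the 36 libraries, centred within each chamber, was Sdha, a subunit of succinate dehydrogenase, with Pearson's r of 0.954 among 8695 genes with a mean of at least 10 CPM. It was followed by Gm37829 (0.922) and Cmya5 (0.917), a sarcomere-associated protein. The closest to Acta1 were Fhl1 (0.639) and Hspb6 (0.619), and to Acta2 Cnn2 (0.65) and Csrp1 (0.627), the first a calponin. For Tnni1 they were Fgf12 (0.681) and Sphkap (0.676). These are descriptions over libraries that share cohorts, depth and chamber, and carry no test.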

How the data were processed

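RNA-Seq libraries of poly(A)-selected RNA from ventricle and atria were aligned by the authors to mm10 with STAR 2.7.10b and quantified per gene of GENCODE M25 with RSEM 1.3.1. The authors deposited an expected count per gene symbol and library as RSEM estimated it, not normalised for depth. They also deposited TPM, in which RSEM divides by transcript length and scales each library to a fixed sum. Tool versions are from the submitters' processing notes. Counts were rounded and tested with edgeR 4.0.16 in R 4.3.3 (quasi-likelihood, robust, TMM, filterByExpr) with 1 mean for each of 12 groups over 36 libraries, and Benjamini-Hochberg adjustment over the 19231 genes of a comparison. Standard errors come from the F statistic. The effective length (log2 of expected count over TPM, at least 100 counts and 1 TPM in every library, centred in 20 length bins) was tested with limma 3.58.1. Shares of TPM were compared with exact two-sided permutation tests (scipy 1.17.1), and Python 3.11.15 made the figures. DESeq2 1.42.0 was an alternative, as were RLE size factors, library totals, no filter, limma on log2(TPM + 1) and log2(TPM + 0.1), fits of 1 chamber, the library name series (the leading digits of the names, 53 or 56) as a covariate or alone, the replicate number as a block, and each replicate left out.

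The 10 members and all lists were chosen with earlier results of these data known. Genes outside the members were named by this rule: past the test, at least 1.5-fold, and at most 4 for a list and comparison. Myh6 and the marker genes with their levels are named outside it. Coordinates and transcripts came from GENCODE M21 on GRCm38, in which 96.4% of the 55291 symbols were found, and promoters from RefSeq. A chi-square per gene between replicates was 10.3 to 141 over 36 pairs (1 would be sampling noise), so the replicates of a group differed by far more than sampling noise. On counts simulated for –dox against +dox ventricles (18832 genes), the test recovered 85% of 2-fold and 60% of 1.5-fold changes, with 3.97% of its calls false. Reads, splicing, and the human MBNL and DMPK sequences were not analysed here.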

Additional observations from a re-analysis of the deposited data

How the results depend on the processing

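The rise of Tnnt2 in –dox and +/–dox mice kept its direction and stayed past the test in both chambers under every alternative run, and within the library name series 53 and 56 (series 56 has 1 animal per cohort and gives no test) it was 0.43 and 0.61 for –dox and 0.62 and 0.68 for +/–dox ventricles, and 0.40 and 0.63 for –dox and 0.52 and 0.51 for +/–dox atria. Ventricular Tpm2 was -1.08 (–dox) and -1.25 (+/–dox) within series 53, and 0.00 and 0.40 within series 56, where the +dox library is replicate 3. Of 10 members, the count past the test went from 2 to 1 for the –dox ventricle with 18 libraries of one chamber, from 4 to 2 for the +/–dox ventricle with library totals only and within series 53, and from 0 to 1 for the MBNL1 ventricle within series 53 (Tnnt1, -0.62, adjusted p = 0.0453). For the MBNL1+MBNL2 ventricle it went from 1 to 2 with DESeq2 and with library totals, and to 0 with RLE size factors and without the filter. For the –dox atria it went from 2 to 3 with DESeq2, 18 libraries of one chamber and both TPM scales. The replicate block, the library name series as a covariate and series 53 alone gave 3 there too. For the +/–dox atria it went from 2 to 3 with 18 libraries of one chamber and both TPM scales. Leaving out 1 replicate gave 1 to 2 members in the –dox ventricle, 2 to 3 in the +/–dox ventricle, 0 to 1 in the MBNL1+MBNL2 ventricle, 1 to 2 in the +/–dox atria and 2 to 3 in the pooled ventricle. Without +dox replicate 1 the –dox ventricle still had 2, because another member gained a call where Tpm2 lost its own. The cause of these shifts was not tested.

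Between chambers of –dox mice, the sign reversed for Tnnt2 (-0.15 with TPM + 1 and -0.15 with TPM + 0.1), Tnnt1 (-0.30 and -0.34) and Tnni3 (-0.29 and -0.29, and -0.06 with library totals), beside medians over all genes of -0.32 and -0.50 on these scales. The replicate number as a block is a number shared between cohorts and not a pairing known from the labels: same-numbered libraries of different cohorts had a median correlation of 0.0243 between ventricles and 0.0575 between atria. With the replicate block, Tnnt1 in the MBNL1+MBNL2 ventricle lost its call (-0.58, adjusted p = 0.0518), while Tpm1 there (-0.25, adjusted p = 0.0402) and Tpm2 in the –dox atria (-0.63, adjusted p = 0.0446) and pooled atria (-0.54, adjusted p = 0.0372) gained one. Both chambers come from the same animals per the study, which does not give the animal behind a replicate number. In the data, 33 of 36 libraries correlated best with their own number in the other chamber, and a block of these numbers changed no member call between chambers except Acta2 in MBNL1+MBNL2 mice. Depth limits Tnni1 in the ventricle, where it had at most 0.837 CPM. The background counts of all genes past the test moved by over 1.5 times in MBNL comparisons and not in the dox comparisons, but at 1.5-fold or more log2(TPM + 1) moved them from 1461 to 714 in the –dox and from 1270 to 629 in the +/–dox ventricle, and in the MBNL1+MBNL2 ventricle from 509 to 241 (298 with 18 libraries of one chamber). In the ventricle, MBNL1 went from 1722 to 680 with 18 libraries of one chamber and 1109 with TPM + 1, MBNL2 from 1428 to 545 with 18 libraries, 947 without the filter and 860 within series 53, and MBNL1+MBNL2 from 1604 to 778 with 18 libraries. In the atria, MBNL1 went from 67 to between 105 and 192, MBNL2 from 2 to between 1 and 15, and MBNL1+MBNL2 from 132 to 286 with DESeq2 and 355 with the library name series as a covariate.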
